A study of Mus musculus with 2 samples.

Results

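Replicating cells of mouse ileal enteroids were defined by their own counts. A cell was taken when it held at least 5000 UMIs, when *Mcm2*, *Mcm3*, *Mcm4*, *Mcm5*, *Mcm6*, *Ung* and *Dtl* together gave at least 8 of every 10000 UMIs of the cell, and when *Mki67*, *Top2a*, *Cenpf*, *Ccnb1* and *Cdc20* together gave under 8. UMIs are molecular tags that count captured transcripts, and levels are given as UMIs per 10000 UMIs. The rule found 160 cells among the 4374 of both libraries, of which 2746 held at least 5000 UMIs. The control library gave 138 of them and the library labelled *Taf4*IEC gave 22.

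The study asked what loss of Taf4, which belongs to the transcription factor TFIID at core promoters, does to the intestinal epithelium, and captured single cells of enteroids, which are epithelial structures grown in Matrigel from ileal crypts of 4-month-old C57Bl6/129sv mice. *Taf4*IEC enteroids carry floxed *Taf4* alleles (*Taf4*lox/lox) and VilCreERT2, a Cre driven by the villin promoter of intestinal epithelial cells, and the cultures received 4-hydroxytamoxifen (4-OHT) for 3 days. The label of the control names wild-type organoids given ethanol, whereas the methods of the study name *Taf4*lox/lox enteroids given 4-OHT, and these descriptions were not reconciled here. Live cells were sorted and captured on a 10X Genomics device. Each condition was 1 library, so there is no replicate, no test was made, and all intervals are 95% intervals for counting error alone.

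Before a cell copies its DNA, the origin recognition complex, Cdc6 and Cdt1 load the ring of Mcm2 to Mcm7 onto origins, which is called licensing. In S phase these rings are activated as helicases, polymerases follow at the fork, nucleotide enzymes supply precursors, and chromatin is rebuilt behind. In the crypt, Lgr5+ stem cells at the base and the transit-amplifying progenitors above them both divide, whereas Paneth cells, goblet cells and enterocytes have left the cycle. Transcripts of the Mcm genes peak from late G1 into S phase, and those of *Mki67*, *Top2a* and *Ccnb1* peak later, so that the rule takes the earlier side of the cycle.

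The libraries differed in depth. Cells under 5000 UMIs made up 22.4% of the control cells and 58.1% of the cells labelled *Taf4*IEC, and 37 and 66 of these shallow cells met both sums but were left out. Control replicating cells held a median of 22784 UMIs (7088 to 34711). Those labelled *Taf4*IEC held 34902 (6106 to 43314). Mitochondrial transcripts took a median of 6.57% and 7.61% of their UMIs, and *Malat1* and 4 other transcripts that mark damaged cells or ribosomal RNA summed to 52.2 and 63.3 per 10000 (log2 ratio 0.28), whose part in the results was not tested. The libraries shared 2 cell barcodes, of which 0 belonged to a replicating cell. Doublets were not removed, because the doublet caller marked 0.312% of the control cells and 0 cells labelled *Taf4*IEC. Of the replicating cells, 2 in the control lay above the 98th percentile of UMIs of their library. *Taf4* itself gave 26 UMIs in the control replicating cells and 4 in those labelled *Taf4*IEC, a log2 ratio of -0.59 (-2.57 to 0.93), and in the other cells of at least 5000 UMIs it was higher in the library labelled *Taf4*IEC, at 0.49. The reads are tags of the 3′ end and the deleted part of *Taf4* is not given in the sources used here, so these counts do not check the deletion.

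Many genes of the replication machinery carry E2F-type motifs near their start, the letters bound by the E2F factors that drive entry into S phase. The motifs TTTCCCGC, TTTCGCGC, TTTGCCGC and TTTGGCGC were searched on both strands in the 250 bases before the annotated start in RefSeq (GRCm38.p6). They stood in 2.16% of the 27025 promoters of all genes, and in 14 of the 77 promoters found for 88 replication genes outside the rule (18.2%). Of the 15 genes outside the rule that were raised most in the replicating cells, 11 had a promoter and 6 of these held a motif. The windows around the motif are shown for the 3 rule genes that held one and for *Hells*, *Uhrf1* and *Cdc6*, which lie among the genes described next, with the motif in capitals. *Mcm4* and *Ccne2* had no entry. Mcm5 is on the forward strand of chromosome 8 (chr8:75109330-75109393) with 2 overlapping matches, Mcm6 on the reverse strand of chromosome 1 (chr1:128359719-128359841) with 3 matches, of which 2 overlap, and Dtl on the reverse strand of chromosome 1 (chr1:191575545-191575578). Hells (chr19:38930917-38930946), Uhrf1 (chr17:56304117-56304146) and Cdc6 (chr11:98908002-98908031) are on the forward strand, and their windows lie within the annotated span of the gene, before an annotated start. A match of letters is not a bound site.

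Mcm5: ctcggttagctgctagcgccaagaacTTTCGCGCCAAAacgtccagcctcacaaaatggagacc

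Mcm6: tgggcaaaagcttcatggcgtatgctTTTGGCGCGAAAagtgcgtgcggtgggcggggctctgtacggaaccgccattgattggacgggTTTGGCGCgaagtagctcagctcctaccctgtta

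Dtl: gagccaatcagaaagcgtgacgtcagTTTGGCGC

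Hells: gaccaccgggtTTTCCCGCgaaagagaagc

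Uhrf1: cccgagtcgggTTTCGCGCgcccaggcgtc

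Cdc6: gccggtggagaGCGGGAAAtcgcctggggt

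Replicating cells were a smaller part of the library labelled *Taf4*IEC. They made up 138 of 1988 control cells of at least 5000 UMIs, 6.94% (5.86% to 8.15%, Clopper-Pearson), and 22 of 758 labelled *Taf4*IEC, 2.90% (1.83% to 4.36%). The difference was -4.04 percentage points (-5.66 to -2.23). Cells past the mitotic sum but not the Mcm sum, called mitotic here, were 14.6% and 5.01%, a difference of -9.57 points. Only 11 control cells and 1 cell labelled *Taf4*IEC passed both sums. Among all cells past either sum, the replicating share was 31.4% in the control (27.1% to 36.0%). The library labelled *Taf4*IEC had 36.1% (24.2% to 49.4%), which differed by 4.63 points, and the interval of the difference ran from -8.12 to 18.6. Thinned to 5000 UMIs a cell, which set both libraries to equal depth, the rule took 187 and 28 cells and the difference in share was -5.71 points.

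The Mcm sum of the members ran from 8.01 through a median of 9.92 to 17.6 per 10000 in the control, and from 8.19 through 9.73 to 15.3 in the cells labelled *Taf4*IEC. The threshold does not lie in a gap. Between 8 and 9 per 10000 stood 35 control cells and 9 labelled *Taf4*IEC, and just outside, between 7 and 8, stood 59 and 12. The highest Mcm sums outside were 7.97 and 7.96. The other cells had medians of 0.846 and 0.177. The mitotic sum of the members reached 7.84 and 5.02, with medians of 1.90 and 1.63, and it was 0 in 15 control cells and 3 labelled *Taf4*IEC.

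**Figure D1:**
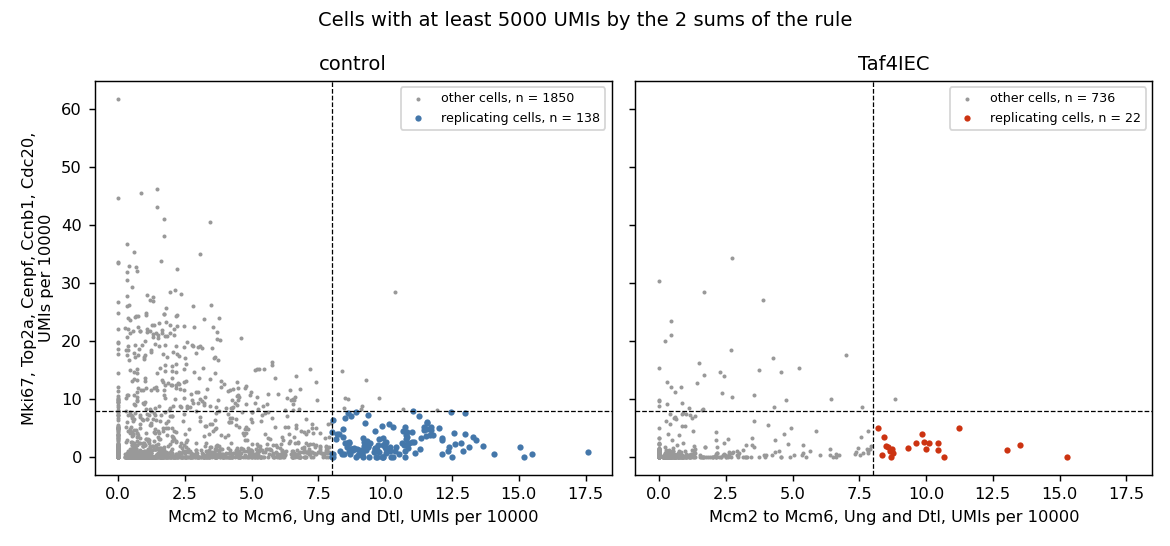
Each point is 1 cell with at least 5000 UMIs, with the summed Mcm genes, *Ung* and *Dtl* on the x axis and the summed mitotic genes on the y axis, both in UMIs per 10000 of the cell, for the control and the library labelled *Taf4*IEC. Dashed lines mark 8 per 10000 on both axes, and the coloured replicating cells, 138 and 22, lie right of and below them with no gap at the line.

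The replicating share was also split by the stem cell marker *Lgr5*, with splits chosen after values were seen. Of the replicating cells, 102 of 138 in the control (73.9%) and 21 of 22 labelled *Taf4*IEC (95.5%) had *Lgr5*, the R-spondin receptor that marks crypt base stem cells, at 1 or more per 10000. Among all cells with that much *Lgr5*, 8.79% replicated in the control and 7.72% in the library labelled *Taf4*IEC, a difference of -1.06 points (-4.45 to 3.08), whereas mitotic cells among them differed by -11.0 points. Among cells below that level, 36 of 827 control cells and 1 of 486 labelled *Taf4*IEC replicated, a difference of -4.15 points (-5.78 to -2.56). Splits by a level gave small differences among the cells above it, at -0.68 points for *Lgr5* at 2 per 10000 (-5.57 to 5.72), -0.48 for *Olfm4* at 5 per 10000 (-7.13 to 8.21) and -0.01 for the stem marker list at 20 per 10000 (-5.11 to 6.25). A split by the presence of any *Lgr5* UMI gave -3.56 points (-5.97 to -0.68), and the same split in another random thinning to 5000 UMIs a cell gave -6.25 (-10.1 to -1.46). The size of the difference thus moved with how the split was made.

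The label of the cells was borne out by genes the rule did not use. The cells were chosen on these same counts, so the following is a description. Of genes with at least 200 UMIs, 120 of 7606 (1.58%) were at least 2-fold higher in replicating than in the other cells of at least 5000 UMIs in both libraries, and 357 (4.69%) at least 2-fold lower. Of the replication genes outside the rule, 64 of 87 were at least 2-fold higher in the control and 73 of 82 in the library labelled *Taf4*IEC. These are counts of 1 library each, whereas the 1.58% of all genes asks for both libraries at once, which is stricter. The share of all genes in each library alone is not given here. Their summed level was 88.2 per 10000 in control replicating cells against 40.7 in the other control cells, a log2 ratio of 1.12, and 91.4 against 24.9 in the library labelled *Taf4*IEC, a log2 ratio of 1.87. The other cells, not the replicating cells, carried the difference between these ratios.

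**Figure D2:**
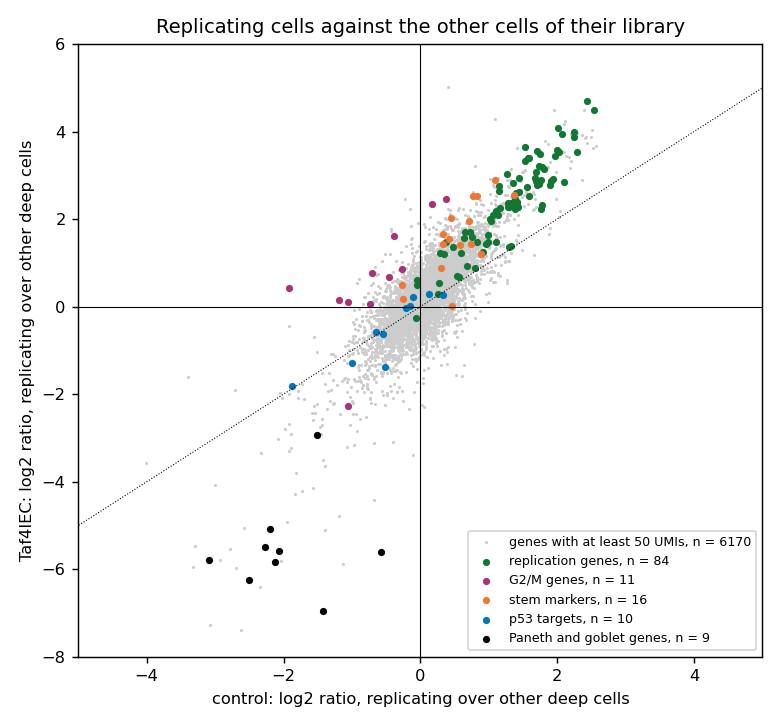
Log2 ratio of replicating over other cells of at least 5000 UMIs, in the control on the x axis and in the library labelled *Taf4*IEC on the y axis, with 1 point for each of 6170 genes, coloured for genes of 5 lists, and a dotted line of equal ratios. Most replication genes lie in the upper right above the dotted line, and the 9 Paneth and goblet genes lie in the lower left.

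Among the 15 genes raised most in both libraries were *Atad2*, *Casp8ap2*, *Chaf1b*, *Dnmt1*, *Gins2*, *Hells*, *Lig1*, *Pola1*, *Rpa1*, *Rpa2*, *Rrm2*, *Tipin*, *Topbp1* and *Uhrf1*. *Hells*, a chromatin remodeler needed for DNA methylation and 1 of the markers, stood at 2.24 in the control and 3.87 in the library labelled *Taf4*IEC on this log2 scale. *Uhrf1*, which brings the methyltransferase Dnmt1 to newly copied DNA, stood at 2.25 and 3.98. *Rrm2*, the S-phase subunit of ribonucleotide reductase, stood at 2.09 and 2.86, and *Lig1*, the ligase that joins Okazaki fragments, at 1.75 and 3.48. The 5 lowest were *Chga*, *Chgb*, *Gcg*, *Leap2* and *Pyy*, of which 4 belong to hormone-secreting cells and *Leap2* to villus enterocytes. *Gcg* gave 8 UMIs in 138 control cells and 3 in 22 cells labelled *Taf4*IEC.

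The replicating cells were also set against *Lgr5* cells below both sums, which carried *Lgr5* at 1 or more per 10000. Of the replication genes, 61 of 87 in the control and 61 of 77 in the library labelled *Taf4*IEC were at least 2-fold higher in replicating cells. Over all genes of at least 200 UMIs, 44 of 4227 were at least 2-fold higher in both libraries (1.04%) and 35 at least 2-fold lower (0.828%). These shares ask for both libraries at once, which is stricter than the counts of replication genes in 1 library. Genes of ribosome biogenesis were at least 2-fold higher in 0 of 15 cases in the control and 3 of 15 in the library labelled *Taf4*IEC, although 15 of 15 were higher by some amount in each, and genes of glycolysis were higher in 0 of 12.

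The replication genes held nearly the same level in replicating cells of both libraries. Cells of both were cut at the same Mcm sum, so this is not independent of the rule. The median log2 ratio, library labelled *Taf4*IEC over control, was 0.06 over the 84 of 88 genes with at least 50 UMIs, beside 0.24 over all 6174 genes of that minimum. Of the 84, 49 were higher and 35 lower, 0 were at least 2-fold higher and 1 at least 2-fold lower, beside 3.73% and 2.61% of all genes. Of all 6174 genes, 70.8% were higher by some amount, and counts of higher genes below are to be read beside that share. Per cell, the summed level ran from 49.9 through a median of 87.5 to 122 in the control and from 48.3 through 92.8 to 117 in the cells labelled *Taf4*IEC, so that the ranges overlapped over almost their whole length. In the other cells the sum was lower in the library labelled *Taf4*IEC, at a log2 ratio of -0.71, and in mitotic cells it was -0.02. Part of the shift of all genes goes with ribosomal protein transcripts, which took 33.1% of the UMIs of control replicating cells and 25.7% of those labelled *Taf4*IEC. With ribosomal protein, mitochondrial and abundant non-coding transcripts taken out of the total, the median of all genes became 0.10 and that of the replication genes -0.09, so that its sign depended on the total.

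**Figure D3:**
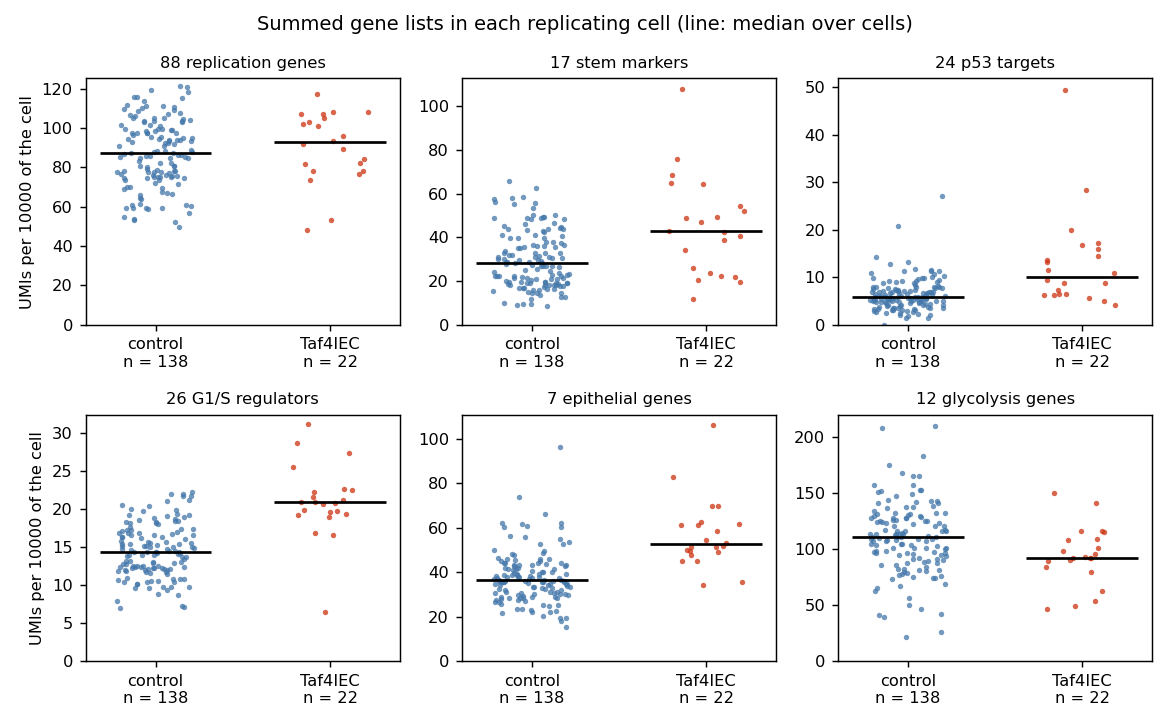
Summed level per cell, in UMIs per 10000 of the cell, of 6 gene lists in the replicating cells of the control (138) and of the library labelled *Taf4*IEC (22), with 1 point a cell and a line at the median. The replication sums overlap, with medians of 87.5 and 92.8, whereas the p53 target sums have medians of 5.86 and 10.1.

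Among the licensing genes, 8 of 11 were higher and 3 lower in the cells labelled *Taf4*IEC, 0 of them 2-fold, which is close to the 70.8% of all genes. The rule genes themselves, given as a description, lay between -0.56 for *Mcm6*, a helicase subunit, and 0.33 for *Ung*, the uracil DNA glycosylase. *Mcm6* was 2.36 per 10000 in the control and 1.61 in the cells labelled *Taf4*IEC. *Mcm7*, the helicase subunit outside the rule, was 1.63 and 1.72 per 10000 (log2 ratio 0.08, -0.22 to 0.36). *Orc6*, of the origin recognition complex, had 0.29 (-0.04 to 0.62), and *Cdc6*, the loader, 0.13 (-0.46 to 0.68). *Cdt1*, the other loader, and *Gmnn*, which inhibits it, had -0.22 and -0.13, both with intervals that span 0. *Hells* had 654 UMIs in the control and 189 in the cells labelled *Taf4*IEC, 2.14 and 2.67 per 10000, a log2 ratio of 0.31 (0.07 to 0.55).

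Genes that fire the helicase and run the fork did not move together. For helicase activation, 4 of 10 were higher and 6 lower, with summed levels of 4.72 and 4.73. For the fork, 14 of 28 were higher and 14 lower, with sums of 23.4 and 23.2. *Pcna*, the sliding clamp of the polymerases, had a log2 ratio of 0.09 (-0.20 to 0.37), and *Fen1*, the flap nuclease, 0.39 (0.04 to 0.72). *Pole4*, a small subunit of polymerase epsilon, had -0.56 (-1.05 to -0.09). Among genes of checkpoint and repair, *Rad17*, the loader of the damage clamp, had 1.22 (0.48 to 1.92) on 50 and 27 UMIs, and *Clspn*, the mediator of Chek1 activation, had -0.62 (-1.16 to -0.13), while 10 of 18 were higher and 8 lower.

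Genes of nucleotide supply split in direction. *Tk1*, the thymidine kinase of the salvage pathway, was 0.927 per 10000 in the control and 0.437 in the cells labelled *Taf4*IEC, a log2 ratio of -1.08 (-1.67 to -0.55), and it was the replication gene past 2-fold. *Dut*, which keeps dUTP out of DNA, had -0.34 (-0.56 to -0.13). *Cad*, the first enzyme of pyrimidine synthesis, and *Ctps*, the CTP synthase, had 0.93 (0.37 to 1.47) and 0.78 (0.23 to 1.30). In all, 12 of 20 were higher and 8 lower. Of chromatin genes, *Dnmt1*, the maintenance methyltransferase, had -0.40 (-0.79 to -0.04) and the histone chaperone *Asf1a* 0.60 (0.10 to 1.08), with 11 of 15 higher and 4 lower.

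Among regulators of the step from G1 to S, the D-type cyclins *Ccnd1* and *Ccnd2* were higher while the list as a whole moved like all genes, with a median log2 ratio of 0.24 beside 0.24. The summed list gave 14.7 per 10000 in the control and 21.8 in the cells labelled *Taf4*IEC, a log2 ratio of 0.57 (0.48 to 0.65), and 21 of the 22 cells lay above the control median of 14.4. *Ccnd1* and *Ccnd2* carried most of the difference between these sums. *Ccnd2* was 3.13 and 6.64 per 10000 (log2 ratio 1.09, 0.93 to 1.25), and *Ccnd1* 1.00 and 2.68 (1.42, 1.15 to 1.69). Their partner kinases *Cdk4* and *Cdk6* had 0.41 and 0.51, and *Ccne2*, of the E-type cyclins that act with Cdk2 at the start of S phase, had 0.93 (0.30 to 1.53). Of the 21 genes with at least 50 UMIs, 12 were higher and 9 lower, a smaller share than the 70.8% of all genes. *E2f8*, an atypical E2F repressor, had -1.39 on 90 and 8 UMIs, with 62.5% of the latter from 1 cell. *Ccnd1* and *Ccnd2* were also higher in the other cells, at 1.65 and 1.10, while *Ccne2* was lower there, at -1.17.

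Transcripts of G2 and M outside the rule summed to 7.67 and 6.43 per 10000 (log2 ratio -0.25, -0.40 to -0.11), with 2 of 11 genes higher and 9 lower. Mitotic cells held 49.4 and 42.4. Against the other cells, the replicating cells stood at -0.87 in the control and 0.61 in the library labelled *Taf4*IEC. *Cdk1*, the mitotic kinase, which the rule did not use, was 1.10 and 1.13 per 10000 in replicating cells (log2 ratio 0.04, -0.33 to 0.39), whereas in the other cells it had -2.13. *Prc1*, a spindle midzone protein, was 0.279 and 0.0987 per 10000, on 85 and 7 UMIs. Replication-dependent histone transcripts mostly lack a poly(A) tail, and the capture primes on that tail. *Hist1h1b*, a linker histone, had 264 and 13 UMIs (-2.24, -3.17 to -1.44). *Hist1h2bc*, a histone H2B gene, had 17 and 73 (4.21, 3.43 to 5.06), with 14 of 138 and 14 of 22 cells holding a UMI.

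Targets of p53 were higher in the replicating cells labelled *Taf4*IEC. Of the 10 of 24 listed genes with at least 50 UMIs, 9 were higher and 1 lower, 6 were at least 2-fold higher and 0 at least 2-fold lower, and the median log2 ratio was 1.22 beside 0.24 for all genes. Of all genes, 70.8% were higher, 3.73% at least 2-fold higher and 2.61% at least 2-fold lower. The sum was 6.47 per 10000 in the control (6.19 to 6.76) and 14.2 in the cells labelled *Taf4*IEC (13.4 to 15.1). Per cell it ran from 0 through a median of 5.86 to 27.1 in the control and from 4.23 through 10.1 to 49.4 in the cells labelled *Taf4*IEC, with 19 of 22 above the control median and 2 above the highest control cell. A single cell gave 20.9% of these UMIs and the top 4 gave 47.2%. In the cells of 10000 to 30000 UMIs, of which only 6 were labelled *Taf4*IEC, the median was 0.77.

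*Ccng1*, a cyclin that feeds back on p53, had 131 UMIs in the control and 115 in the cells labelled *Taf4*IEC, 0.429 and 1.62 per 10000 (log2 ratio 1.92, 1.54 to 2.29). *Cdkn1a*, the p21 inhibitor of cyclin-dependent kinases, was 0.567 and 1.85 per 10000 (1.70, 1.37 to 2.04). The proapoptotic gene *Bax* had 1.14 (0.91 to 1.36), the Akt inhibitor *Phlda3* 1.69 and the RNA-binding protein *Zmat3* 1.37. The stress cytokine *Gdf15* had 1.30, but 55.6% of its UMIs in the cells labelled *Taf4*IEC came from 1 cell. The antiproliferative gene *Btg2* and the junction gene *Perp*, also p53 targets, had 0.03 and -0.02, with intervals that span 0.

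The p53 targets were higher in the other cells as well. In the other cells the sum was 9.68 in the control and 22.2 in the library labelled *Taf4*IEC, a log2 ratio of 1.20, beside 1.14 in replicating cells, and in mitotic cells it was 1.43. In each library the replicating cells lay below the other cells, at log2 ratios of -0.58 in the control and -0.64 in the library labelled *Taf4*IEC. *Cdkn1a* at 2 or more per 10000 was found in 5 of 138 control replicating cells (3.62%) and 5 of 22 labelled *Taf4*IEC (22.7%, 7.82% to 45.4%), against 28.6% and 70.7% of the other cells.

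Stem cell markers were higher in the replicating cells labelled *Taf4*IEC and lower in the other cells of that library. The list gave 30.4 per 10000 in control replicating cells and 43.6 in those labelled *Taf4*IEC, a log2 ratio of 0.52 (0.46 to 0.58), against -0.67 in the other cells, where the sums were 19.1 and 12.0. Of the 16 of 17 genes with at least 50 UMIs, 12 were higher and 4 lower, with 2 at least 2-fold higher and 1 at least 2-fold lower, beside 70.8% higher and 3.73% and 2.61% past 2-fold over all genes. The median was 0.59 beside 0.24, and 0.27 with cells thinned to 5000 UMIs. Per cell the sum ran from 8.48 through 28.1 to 66.0 in the control and from 11.8 through 42.7 to 108 in the cells labelled *Taf4*IEC, of which 15 of 22 lay above the control median and 3 above the highest control cell. The difference between these ratios was not tested. In mitotic cells the sums were 22.7 and 24.1 (log2 ratio 0.08, 0.02 to 0.14). In *Lgr5* cells below both sums, which *Lgr5* itself chose, the sums were 25.9 and 24.1.

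**Figure D4:**
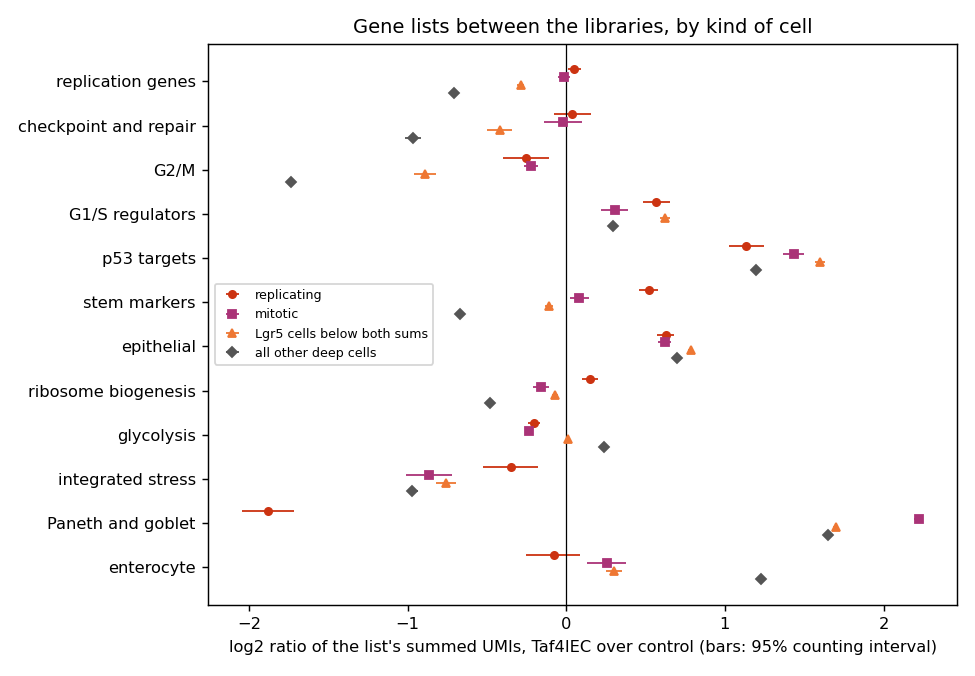
Log2 ratio, library labelled *Taf4*IEC over control, of the summed UMIs of 12 gene lists in replicating cells, mitotic cells, *Lgr5* cells below both sums and all other cells of at least 5000 UMIs, with bars for 95% counting intervals. Stem markers are at 0.52 in replicating and -0.67 in all other cells, p53 targets at 1.14 and 1.20, and Paneth and goblet markers at -1.88 and 1.65.

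*Olfm4*, a secreted glycoprotein of crypt base cells, was 10.6 and 16.9 per 10000 (log2 ratio 0.68, 0.58 to 0.78), against -1.13 in the other cells. Its ratio was 0.29 at an Mcm sum of at least 6 and -0.06 at 12. *Lgr5* was 2.11 and 2.69 per 10000 (0.35, 0.11 to 0.59), against -0.78. *Axin2*, a target and brake of Wnt signalling, was 0.888 and 1.99 (1.16, 0.86 to 1.46), with a UMI in 108 of 138 and 22 of 22 cells. *Cd44*, a hyaluronan receptor and Wnt target, had 1.47 (0.86 to 2.07), and the ion transporter *Slc12a2* had 0.60. Not all markers were higher. *Ascl2*, the transcription factor of stem cell identity, had -0.31 (-0.79 to 0.13), against -2.01 in the other cells, and the water channel *Aqp4* had -1.18 (-1.69 to -0.71), with 117 of 138 and 14 of 22 cells holding a UMI. Of the 22 cells, the top 4 gave 35.0% of the stem marker UMIs.

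**Figure D5:**
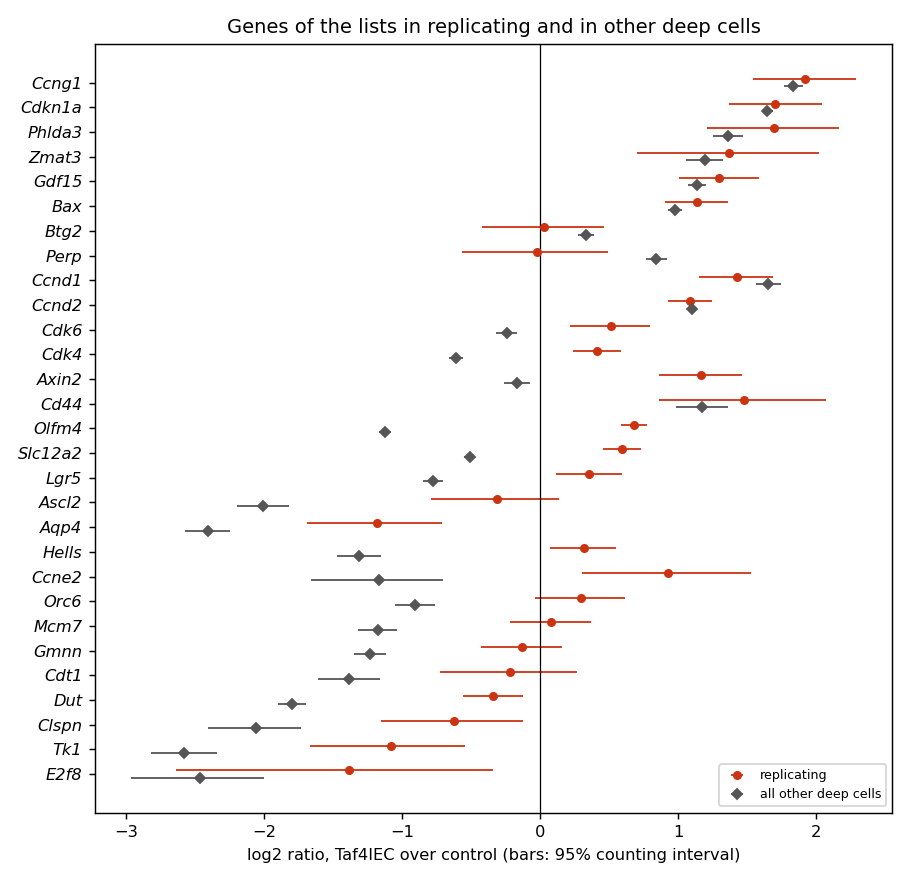
Log2 ratio, library labelled *Taf4*IEC over control, of 29 genes of the lists in replicating cells (circles) and in all other cells of at least 5000 UMIs (diamonds), with bars for 95% counting intervals. *Ccng1* is at 1.92 and 1.84, whereas *Olfm4* is at 0.68 and -1.13 and *Mcm7* at 0.08 and -1.18.

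Secretory markers were low in most replicating cells of both libraries. Paneth and goblet markers gave 17.4 per 10000 in the control and 4.74 in the cells labelled *Taf4*IEC (log2 ratio -1.88, -2.04 to -1.72), against 69.8 and 219 in the other cells, where the ratio was 1.65. A few control cells carried this. Per cell the control ran from 0.41 through a median of 3.29 to 1003, and the cells labelled *Taf4*IEC from 0.99 through 4.35 to 23.2, so that the medians lay in the opposite order to the sums. The top control cell gave 34.5% of the UMIs and the top 4 gave 60.8%. In the control 6 cells held 100 or more per 10000 and in the library labelled *Taf4*IEC 0. Without the cells of 10 or more, the median log2 ratio of the list was 0.16 in place of -1.73. The doublet caller, which marked too few cells to have worked, marked 0 replicating cells, and the part of free RNA from Paneth cells was not tested.

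Of the 9 markers with at least 50 UMIs, 1 was higher and 8 lower, 7 of them at least 2-fold, beside 2.61% of all genes. *Lyz1*, the lysozyme of Paneth cells, had 703 and 26 UMIs (-2.65), with 61.6% of the control UMIs from 1 cell. *Fcgbp*, a mucus protein of goblet cells, had 357 and 5 UMIs (-4.05), and the goblet peptide *Tff3* had -2.29. Enterocyte markers moved in both directions, with 3 of 5 at least 2-fold lower, beside the same 2.61%, and 2 higher. Their median was -1.30 and their sums were 5.10 and 4.82 per 10000. *Sis*, the sucrase-isomaltase, had -1.57 (-2.28 to -0.93). In the other cells the sums were 26.7 and 62.5, and 0 replicating cells of either library reached 50 per 10000. Enteroendocrine markers gave 0.229 and 0.339, and markers of immune, stromal and endothelial cells, of which 5 of 10 were in the tables, 0 and 0.0141. Of the secretory precursor genes, the transcription factor *Sox4* had -0.07, with 36.1% of the UMIs in the cells labelled *Taf4*IEC from 1 cell.

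General epithelial markers were higher in sum, with 5 of 7 intervals above 0, a median log2 ratio of 0.80 beside 0.24 for all genes and a sum of 37.7 and 58.2 per 10000 (log2 ratio 0.63), and 20 of 22 cells above the control median of 36.3. *Krt8*, a keratin of simple epithelia, had 1.00 (0.90 to 1.09) and *Krt19* 0.84, whereas the adhesion molecule *Epcam* had 0.02. In the other cells the summed ratio was 0.70. Ribosome biogenesis genes had 12 of 15 higher and 3 lower, with *Ncl*, nucleolin, at 0.34 and *Npm1*, nucleophosmin, at -0.03. Their sum had 0.15, against -0.48 in the other cells, -0.16 in mitotic cells and -0.07 in *Lgr5* cells below both sums. In the mitotic cells and in those *Lgr5* cells, 11 of 15 were higher, with medians of 0.32 and 0.14 beside 0.38 in replicating cells. In replicating cells, glycolysis genes had 3 of 12 higher and 9 lower, with a summed log2 ratio of -0.20 against 0.24 in the other cells. Mitotic cells were alike, with 2 of 12 higher and 10 lower and a summed ratio of -0.24. In *Lgr5* cells below both sums it was 0.01. In replicating cells *Pgk1* had -0.50 (-0.61 to -0.40), and *Slc2a1*, the glucose transporter, -1.23 on 111 and 11 UMIs. Genes of the integrated stress response had 0 of 4 higher and 4 lower, with *Psat1*, of serine synthesis, at -1.07 (-1.80 to -0.42). Their summed log2 ratio was -0.35, and it was lower still elsewhere. It was -0.97 in the other cells, -0.86 in mitotic cells and -0.76 in *Lgr5* cells below both sums.

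Of the subunits of TFIID and of Polycomb repressive complex 2, which trimethylates histone H3 at lysine 27, the counts of higher genes lay near the 70.8% of all genes. For TFIID, 8 of 10 genes were higher and 2 lower, with a sum of 5.01 and 6.55 per 10000 (log2 ratio 0.39). *Taf4b*, the paralog of *Taf4*, had 24 and 15 UMIs, 1.43 (0.39 to 2.42), *Taf6* 1.00 and *Taf12*, the histone-fold partner of Taf4, 0.83. For Polycomb repressive complex 2, 4 of 6 were higher and 2 lower. *Ezh2*, its methyltransferase, had 0.41 (0.13 to 0.68), *Suz12*, its scaffold, -0.08, and *Jarid2*, which helps recruit it, -1.55 on 63 and 5 UMIs. *Tert*, the telomerase reverse transcriptase, gave 4 and 0 UMIs, too few for a ratio.

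Over all 2286 genes with at least 200 UMIs in the replicating cells, 28 were at least 2-fold higher (1.22%) and 43 at least 2-fold lower (1.88%) in the cells labelled *Taf4*IEC. Among the 10 highest were *Pdgfa*, a growth factor read by the mesenchyme, at 2.09 (1.76 to 2.42), *Polr2a*, the largest subunit of RNA polymerase II, at 2.01 (1.64 to 2.38), and *Ccng1*, *Cdkn1a* and *Ccnd1*. *Polr2a* ran from 0 through a median of 0.387 to 1.93 per 10000 in the control cells and from 0.778 through 1.61 to 3.19 in those labelled *Taf4*IEC. All 22 of these lay above the control median. *Brd2*, a bromodomain reader of acetylated histones, had 1.39, *Gpx2*, the glutathione peroxidase of the gut, 1.37, *Bloc1s2* 1.35 and *S100a11* 1.29.

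The 10 lowest held the secretory genes *Lyz1*, *Fcgbp*, *Defa24* and *Reg4*, and *Prap1*, *Spp2*, *Sult1c2* and *Bex1*. Without the cells of 10 or more Paneth and goblet UMIs per 10000, *Lyz1* reversed to 0.85. *Fcgbp*, *Defa24* and *Reg4* did not count as reversed there. *Bex1*, a gene on chromosome X, had 1780 UMIs in 134 of 138 control cells and 34 UMIs in 2 of 22 cells labelled *Taf4*IEC, 5.83 and 0.480 per 10000 (-3.60, -4.14 to -3.12), with 55.9% of the latter from 1 cell. It was lower still in the other cells, at -8.22. *Spp2*, a secreted phosphoprotein, had -3.71 (-5.17 to -2.58), with a UMI in 105 of 138 and 3 of 22 cells. *Gm10260* had 2217 UMIs in 138 of 138 control cells and 0 in the cells labelled *Taf4*IEC, at least 172-fold lower against a floor of 3 counts over the library, and *Gm11361* had 200 and 1. Both are predicted genes whose reads may be shared with near-identical copies, so their counts are uncertain.

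The ratio between the libraries was also compared between replicating and other cells. *Atad2*, an S-phase ATPase of chromatin, *Cdk1* and *Top2a*, with *Bex1* and *Gm10260*, had the most positive difference between the ratio in replicating cells and that in the other cells. *Top2a* is a gene of the rule, which limits it in the members. *Atad2* had 0.03 in replicating cells and -1.83 in the others. The most negative were *Fcgbp*, *Itln1*, *Lyz1*, *Prap1* and *Reg4*, and *Itln1*, a lectin of goblet and Paneth cells, had -0.91 (-1.39 to -0.46) against 2.82. Neither difference was tested.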

How the data were processed

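Transcripts of single cells were counted in 1 library labelled control and 1 labelled *Taf4*IEC. The tables, as deposited, hold raw UMI counts, genes against cells, that were not normalized, and the submitters' processing notes name Cell Ranger 3.1, Seurat 3.1.4, bcl2fastq 2.17.1.14 and the mm10 build. The tables held 39947009 and 24990128 UMIs. The rule was applied to each cell, and UMIs of the members were summed per library and gene with pandas 2.3.3, scipy 1.17.1 and numpy 2.4.6 (Python 3.11.15). Levels have exact Poisson intervals, ratios exact conditional binomial intervals, shares Clopper-Pearson intervals and differences of shares square-and-add intervals, all 95% and for counting error only. Cells are not replicates, so no test was made and genes were counted by a fold of 2. Counts over all genes used genes with at least 200 UMIs, and list medians at least 50. Scrublet in scanpy 1.11.5 was run. The steps were tested on simulated data.

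The members and the gene lists were chosen with earlier results of these data known. The text drew on 158 named genes: the rule genes and markers, the 4 largest ratios and 2 most abundant genes of each list, all licensing, G1/S and p53 genes of at least 200 UMIs, the 10 highest and lowest ratios, the 15 and 5 genes most raised and lowered against other cells, the 5 with the most positive and the 5 with the most negative difference from other cells, and *Taf4*, *Taf4b*, *Lgr5*, *Olfm4*, *Ascl2*, *Ezh2*, *Suz12* and *Tert*. *Cdc6*, *Pcna* and *Fen1* were named outside this rule after their values were seen. Free RNA was not subtracted. There were 19 alternatives (see the closing section), 2 of them added after the data were seen. Some named genes are not reported here.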

Additional observations from a re-analysis of the deposited data

Results flagged for a closer look

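For 2 lists and 5 genes flagged here, the ratio of the library labelled *Taf4*IEC over the control ran in opposite directions in replicating and in the other cells of at least 5000 UMIs. Other lists and genes did so too, such as the summed glycolysis genes (-0.20 and 0.24), the summed ribosome biogenesis genes (0.15 and -0.48) and *Olfm4*. In mitotic cells the summed glycolysis genes had -0.24 and the summed ribosome biogenesis genes -0.16. Stem markers summed to a log2 ratio of 0.52 in replicating and -0.67 in other cells, and to 0.08 in mitotic cells alone. Paneth and goblet markers summed to -1.88 in replicating and 1.65 in other cells. Among their genes, *Lyz1* had -2.65 and 2.37, *Fcgbp* -4.05 and 1.47, *Tff3* -2.29 and 1.41, and the defensin *Defa24* -2.66 and 1.07. The enterocyte gene *Sis* had -1.57 and 1.40. The differences were not tested, since each condition is 1 library. In the control, 22 of 138 replicating cells held Paneth and goblet markers at 10 or more per 10000 and 8 at 50 or more, against 2 and 0 of 22 labelled *Taf4*IEC. Without the cells of 10 or more, the list median was 0.16 and *Lyz1* was 0.85, so that the opposite direction of that median and of *Lyz1* rested on those cells. *Fcgbp*, *Tff3* and *Defa24* did not count as reversed in that setting.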

How the results depend on the processing

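Over all results named here and 19 alternatives, 1753 of 2012 values kept their direction within the counting error, or within 1.5 times for counts, 235 moved further and 24 reversed. The alternatives that leave out 1 deep cell labelled *Taf4*IEC, or the cells rich in Paneth and goblet markers, were added after the data were seen. The other settings were no mitotic limit or one under 4, cells from 2000 or 10000 UMIs, equal weight for cells, removal of predicted doublets or of the deepest cells, cells with an *Lgr5* UMI, and list genes from 20 or 200 UMIs. No paired analysis was possible because each condition has 1 library. The difference in share was -5.71 points with cells thinned to 5000 UMIs, -7.77 with an Mcm sum of at least 6 and -0.76 with at least 12. Genes at least 2-fold higher, 28 of 2286 in the report, were 5 of 608 with thinned cells and 9 of 341 at an Mcm sum of 12. They were 14 of 2188 with totals without ribosomal, mitochondrial and *Malat1* transcripts. From 50 UMIs a gene they were 230 of 6174, from 500 they were 8 of 918, and in cells of 10000 to 30000 UMIs 63 of 1833. Genes at least 2-fold lower, 43 of the same 2286 in the report, were 8, 13, 161, 15 and 68 under the same settings and gene numbers, other than the totals. Genes raised in replicating over other cells, 120 of 7606 in the report, were 10 of 2350 thinned and 196 of 7606 at an Mcm sum of 12. They were 276 of 10423 from 50 UMIs and 50 of 4772 from 500. Thinning left fewer UMIs, and so fewer genes, to count, and an Mcm sum of 12 did so for the ratios between the libraries. Against the other cells, an Mcm sum of 12 left the same 7606 genes. The p53 target median was 0.77 in cells of 10000 to 30000 UMIs, where 6 cells were labelled *Taf4*IEC. The stem marker median reversed to -0.32 at an Mcm sum of 12, where 3 cells were labelled *Taf4*IEC. At that sum the enterocyte, glycolysis and low-quality medians (-1.30, -0.17 and 0.38 in the report's setting) became 0.36, 0.082 and -0.43, and *E2f8*, *Gdf15*, *Jarid2*, *Prap1*, *Prc1*, *Psat1* and *Sis* became 0.85, -0.99, 1.29, 0.39, 0.0074, 0.12 and 0.032. In cells of 10000 to 30000 UMIs the enterocyte median, *E2f8*, *Gdf15*, *Jarid2* and *Sis* became 0.16, 0.26, -1.67, 0.037 and 0.16. At an Mcm sum of 6 the Paneth and goblet median, *Fcgbp*, *Lyz1*, *Reg4* and *Tff3* became 0.70, 0.18, 0.58, 0.59 and 0.24. Without cells rich in these markers the median became 0.16 and *Lyz1* 0.85, and with thinned cells *Fcgbp* became 0.38. The cause of these reversals was not tested. With 22 cells and 708894 UMIs labelled *Taf4*IEC, ratios of genes under 50 UMIs have wide intervals.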

Other observations

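Genes of cholesterol synthesis and uptake were lower in the replicating cells labelled *Taf4*IEC. This list and the next were chosen after values were seen. Of 20 genes, 3 were higher and 17 lower, 3 of them at least 2-fold, beside 2.61% of all genes at least 2-fold lower, and the sum was 17.8 per 10000 in the control and 11.9 in the cells labelled *Taf4*IEC (log2 ratio -0.58, -0.68 to -0.47). Per cell the control ran from 2.76 through a median of 17.5 to 51.4 and the cells labelled *Taf4*IEC from 5.15 through 11.8 to 27.7, with 4 of 22 above the control median. In the other cells of at least 5000 UMIs the sum had 0.20, and in *Lgr5* cells below both sums -0.04. *Msmo1*, a sterol demethylase, had 423 and 28 UMIs (-1.81, -2.42 to -1.26), and *Acat2*, a thiolase, had -1.13. *Msmo1* had 0.08 in the other cells, -0.43 in mitotic cells and -0.13 in *Lgr5* cells below both sums. *Acat2* was lower in each of these, at -0.76, -0.75 and -0.84. Outside the list, the fatty acid desaturases *Scd1* and *Scd2* had -1.86 (-2.46 to -1.30) and -1.18 (-1.38 to -0.98). They had 0.50 and -0.19 in the other cells and -0.81 and -0.54 in mitotic cells. In *Lgr5* cells below both sums they had -0.97 and -0.63. The transferrin receptor *Tfrc* had -1.27, with -0.53 in the other cells, -0.61 in mitotic cells and -0.69 in those *Lgr5* cells.

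Genes induced by low oxygen were also lower, with 15 of 16 below the control, 5 of them at least 2-fold. Of all genes, 70.8% were higher and 2.61% at least 2-fold lower. The low-oxygen genes had a sum of 14.7 and 10.1 per 10000 (log2 ratio -0.55, -0.67 to -0.44). *Ndrg1* had 507 and 25 UMIs (-2.24, -2.88 to -1.66), the phosphofructokinase gene *Pfkp* -1.72, the oxidase gene *Ero1l* of the endoplasmic reticulum -1.17 and the mitophagy gene *Bnip3* -1.04. In mitotic cells the sum had -0.44, in *Lgr5* cells below both sums -0.17, and in the other cells 0.11. *Ndrg1*, *Pfkp*, *Ero1l* and *Bnip3* had -1.15, -0.81, -0.77 and -1.09 in mitotic cells. In *Lgr5* cells below both sums they had -0.77, -0.49, -0.09 and -0.52. The difference between kinds of cells was not tested.

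*Ctnnb1*, which encodes beta-catenin, had 450 and 223 UMIs in the replicating cells (1.09, 0.85 to 1.33) and *Mat2a*, the methionine adenosyltransferase, 1.11 (0.84 to 1.38). Both were also higher in the other cells, at 0.49 and 0.30, and in mitotic cells, at 0.68 and 0.79. In *Lgr5* cells below both sums they had 0.56 and 0.63. The ribosomal protein genes *Rps18* and *Rps2* had 1.01 and 1.12 in replicating cells, and 0.84 and 0.93 in the other cells. In replicating cells 13 of 87 ribosomal protein genes were higher and their median was -0.42.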
